A study of Caenorhabditis elegans with 54 samples.

Results

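The neuropeptide receptor genes described here are the protein-coding genes of Caenorhabditis elegans whose WormBase symbols begin with npr (neuropeptide receptor), frpr (FMRFamide peptide receptor) or dmsr (related to the Drosophila myosuppressin receptors). The rule used the symbols alone, and no measured value. It took 79 genes, of which 43 are npr, 20 are frpr and 16 are dmsr, out of 20728 gene identifiers in the 9 tables of the study. Of these members, 69 were listed in all 9 tables, and dmsr-15 was listed in none.

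Neuropeptides are short secreted signals cut from precursor proteins and packed into dense core vesicles. Most act through receptors in the cell membrane that pass the signal on through heterotrimeric G proteins. In the worm they set feeding, locomotion, sleep, egg laying and social behaviour, and receptors are known on neurons as well as on the muscle, gut and gonad cells they reach. Receptor transcripts are rare in whole-animal RNA, so the ribosomes of a chosen tissue offer a way to see them.

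Each experiment compared RNA bound to ribosomes with total RNA of the same strain, in 3 libraries of each kind, from worms grown on OP50 bacteria to day 1 of adulthood at 20 °C. In 6 experiments a FLAG-tagged ribosomal protein, RPL-22, was immunoprecipitated (IP), and the promoter driving the tag set the tissue. These strains were WBM1471 (wbmIs133) and MSD473 (wbmls99), both driven in neurons by rab-3 and called neurons B and neurons A (the sample labels give WBM1471 to neurons B, while the series text names it for the intestine as well), WBM1339 (wbmIs118) with myo-3 in muscle, WBM1470 (wbmIs131) with nep-17 in intestine, WBM1364 (wbmIs119) with eft-3 in the soma, and MSD470, allele rpl-22(wbm58), tagged at the endogenous rpl-22 gene and called ubiquitous. In the other 3 experiments ribosomes were separated on sucrose gradients with no IP: polysomes of MSD470, a pool of 60S, 80S and polysome fractions of MSD470, and polysomes of untagged Bristol N2. Engineered alleles had been outcrossed to N2, and each tag line is a single strain, so the strain and the tissue cannot be told apart.

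Library depth, estimated from the smallest steps in the values and given in units of 1000000 reads, ran from 6.97 to 80.8 with a median of 33.2. Of the genes whose promoters drive the tag, 3 rose in their own IPs: rab-3 by a log2 ratio of 6.21 (SE 0.35) in neurons B and 6.06 (SE 0.93) in neurons A, myo-3 by 3.41 (SE 0.21) in muscle and nep-17 by 3.32 (SE 0.35) in intestine. The eft-3 gene, annotated as eef-1A.1, went the other way and fell by 1.43 in the soma IP (SE 0.29, adjusted p = 0.00249 by limma), with all 3 IP libraries below total RNA. The tagged gene itself, rpl-22, rose in the muscle IP by 2.37 (SE 0.31) and in the neurons B IP by 1.90 (SE 0.52), was not called in the other 4 IPs, and rose in all 3 gradients. Of the 14 neuron markers, 14 rose in neurons B and 13 in neurons A. All 12 body wall muscle markers rose in muscle, and all 12 intestine markers in intestine. In neurons B, 8 of the 12 intestine markers rose too, their summed level reaching 27430 to 42380 CPM (normalized counts scaled to 1000000 per library) against 17190 to 20840 in total RNA, and their part in the receptor values was not tested. The libraries that stood apart were neurons A IP replicate 3, with 7896 genes listed at 0, and intestine IP replicate 2, with 6112, against a median of 591 over all 54 libraries.

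In total RNA the receptors were scarce in every strain. The summed level of all members lay between 51.9 (SD 18.8) CPM in the neurons A strain and 96.9 (SD 10.0) in the neurons B strain, 3 libraries each. Set per kilobase of exon, npr-5 had the highest mean level over the 9 total RNA groups, at 4.56 CPM per kilobase (SD over groups 1.18). It was followed by dmsr-1 at 2.81 (SD 0.592), frpr-19 at 2.78 (SD 0.977) and npr-37 at 2.68 (SD 0.473), which did not differ from each other beyond their spread. The tables were normalized separately, so levels across strains are a guide only, and in whole-animal RNA fewer cells of a type and less RNA per cell cannot be told apart.

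Neurons B gave the deepest view of the family. Of the 79 members, 78 were listed and 74 reached the mean of 10 normalized counts needed for a test. The limma-trend test on log2 of the normalized count plus 1, with Benjamini-Hochberg adjusted p under 0.05, called 71 of these as risen and none as fallen, where 38.7% of all tested genes rose and 32.6% fell. Some members passed the mean of 10 only through the IP: 63 of the 78 reached it in total RNA alone, and among those 63 the count was 60 risen, where 31.3% of all genes rose and 36.1% fell under that filter. The summed level of the receptors was 3014 (SD 539) CPM in the IP and 96.9 (SD 10.0) in total RNA.

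The largest ratios in neurons B belonged to genes near the floor in total RNA. For frpr-14 the IP libraries read 1664, 2126 and 2187 normalized counts, while total RNA read 15.0 and 21.2 in replicates 2 and 3 and was listed at 0 in replicate 1. Its fitted log2 ratio was 8.13 (SE 0.96, adjusted p = 4.46e-05), a value that leans on the added 1 where a library is at 0. The same holds for frpr-2, at 7.63 (SE 0.81), and for npr-9, a receptor related to those for galanin and allatostatin, at 7.24 (SE 0.62). For npr-7, with no library at 0, the IP read 2998, 3793 and 2865 against 2.50, 23.9 and 20.7 in total RNA, a log2 ratio of 8.01 (SE 0.65, adjusted p = 2.95e-06). For frpr-3, activated by FLP-7 and FLP-11 peptides, the IP read 1978, 2131 and 1865 against 8.72, 10.7 and 12.97, a ratio of 7.42 (SE 0.31, adjusted p = 3.07e-08). In each of these genes every IP library stood above every total RNA library.

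Ranked by level instead, npr-29 led the neurons B IP with 109 CPM per kilobase (SD 9.77), and dmsr-1 came next with 102 (SD 22.9), a gap within their spread. DMSR-1 is the receptor through which FLP-13 brings on sleep after stress. Its IP libraries read 8466, 9552 and 7643 against 134.0, 202.0 and 154.4 in total RNA, 52.3 times higher on the means (log2 ratio 5.72, SE 0.23, adjusted p = 2.74e-08). After these came dmsr-2 at 71.2 (SD 8.55), dmsr-7 at 71.1 (SD 4.999), npr-37 at 68.7 (SD 4.56) and dmsr-3 at 67.6 (SD 4.46), a run of neighbours closer than their spread. No member dominated, since the 10 highest made up 36.1% of the summed level, and the median member stood at 19.3 CPM per kilobase.

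Receptors with known ligands and behaviours were all among those that rose in neurons B. For npr-1, the FLP-18 and FLP-21 receptor that controls social feeding, the IP read 1474, 1760 and 1476 against 21.3, 5.32 and 16.6 (log2 ratio 6.85, SE 0.46, adjusted p = 7.68e-07). The other FLP-18 receptors, npr-4 and npr-5, rose by 5.29 (SE 0.28) and 4.29 (SE 0.32). The FLP-13 receptor frpr-4 rose by 5.77 (SE 0.41), and the FLP-2 receptor frpr-18, which acts in arousal, by 5.69 (SE 0.34). The cannabinoid-type receptor npr-19 rose by 6.92 (SE 0.46), and npr-32, linked with it in axon regeneration, by 6.76 (SE 0.37). The opioid-type receptor npr-17 had a smaller ratio, at 3.17 (SE 0.45), as did npr-22, the FLP-7 receptor, at 3.72 (SE 0.31), and frpr-19 at 2.92 (SE 0.22).

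In the reported fit 3 tested members did not pass in neurons B, and 2 of them lay close to the threshold. For frpr-11 the IP read 127.9, 108.6 and 113.4 against 103.3, 29.3 and 46.2, so that the IP lay above total RNA throughout but the ratio of 1.15 (SE 0.48) missed the threshold (adjusted p = 0.0536). For npr-41 the IP read 24.1, 7.49 and 4.81 against 53.7, 28.4 and 21.3, a ratio of -1.62 (SE 0.67, adjusted p = 0.0519), with replicate 1 of the IP above replicate 3 of total RNA. For dmsr-12 both groups were low and overlapped (adjusted p = 0.352). With the replicate block frpr-11 rose (adjusted p = 0.0414) and npr-41 fell (adjusted p = 0.0296), giving 72 risen and 1 fallen where 39.1% of all genes rose and 32.8% fell, and a pseudocount of 5 gave the same counts. Under the equal sum npr-41 fell by 1.98 (adjusted p = 0.0334) and frpr-11 was not called (adjusted p = 0.219), where 33.4% of all genes rose and 39% fell. Without total RNA replicate 1 frpr-11 rose by 1.63 (adjusted p = 0.00309), and without IP replicate 1 npr-41 fell by 2.23 (adjusted p = 0.0125).

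**Figure D1:**
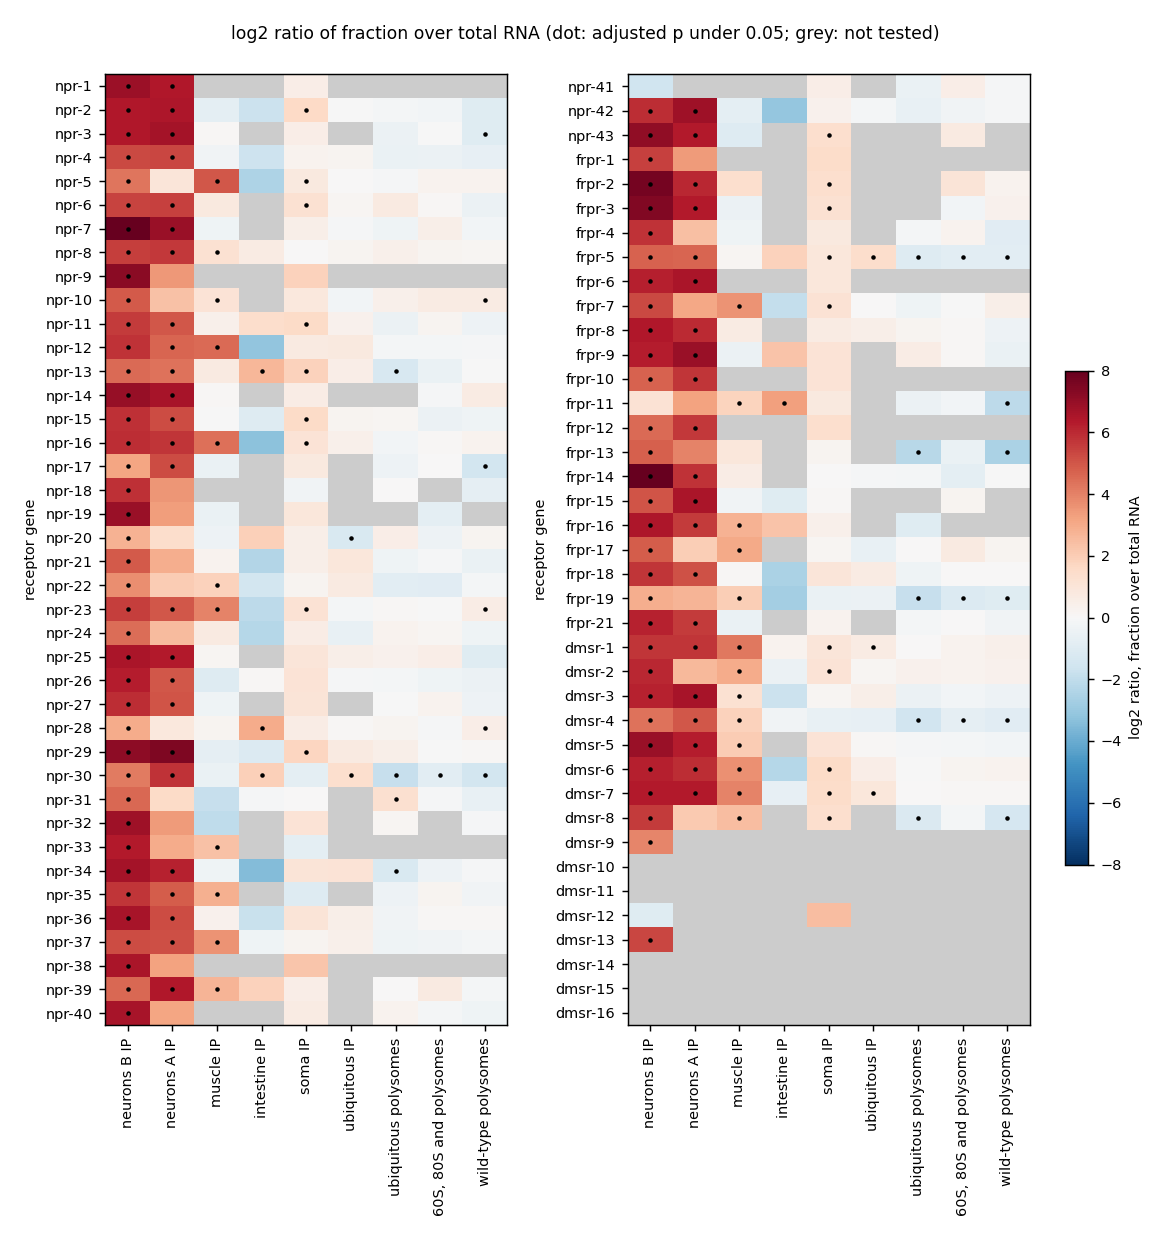
Log2 ratio of fraction over total RNA for the 79 receptor genes (rows) in 9 experiments (columns), with red above and blue below total RNA, a dot where the adjusted p is under 0.05 and grey where the gene was not tested. The neurons B column is red for 72 of its 74 tested genes, the muscle column for 40 of 61, and the gradient columns stay pale.

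Genes dmsr-9 to dmsr-16 lie within a short stretch of chromosome V, from dmsr-9 (start 6798151) to dmsr-15 (end 6828886, minus strand, WBcel235 coordinates). Levels were low throughout, and of these 8 genes 5 reached a mean of 10 in no table. In neurons B, dmsr-13 read 66.2, 103.4 and 56.9 in the IP, with total RNA at 4.99 in replicate 1 and listed at 0 in the other replicates. For dmsr-9 the IP read 71.8, 80.6 and 58.6 against 18.6, 2.67 and 0.519 (log2 ratio 3.89, SE 0.85, adjusted p = 0.00221). Both dmsr-13 and dmsr-9 averaged under 10 in total RNA and were tested only through their IP values. The genes of this stretch were also picked after their values were seen. Below the mean of 10, dmsr-14 read 16.1, 7.73 and 12.5 in the IP, with all 3 total RNA libraries at 0. For dmsr-10 the IP read 6.79, 18.6 and 6.67 against 0.517 in total RNA replicate 3 and 0 in the others. The rest of the stretch did not share this. For dmsr-16 the neurons B IP read 9.66, 1.86 and 16.2 against 0, 4.42 and 5.68, and for dmsr-11 it read 3.85, 3.73 and 0.958 against 0, 0.884 and 5.68, with overlap in both. For dmsr-12, listed in 8 tables, the soma IP read 6.98, 82.0 and 35.3 against 8.11, 1.26 and 6.21, a ratio of 2.45 that was not called (adjusted p = 0.0573).

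In neurons A, 74 members were listed and 70 tested, and 46 rose while none fell, where 15.3% of all tested genes rose and 12% fell. Here the filter matters more, since 27 of the 74 members reached a mean of 10 in total RNA alone, and 19 of those 27 rose where 9.86% of all genes rose and 14.2% fell. The library that stands apart, IP replicate 3, was at 0 for 20 of the 70 tested members. Without it 69 of 69 tested members rose, where 25.9% of all genes rose and 25.7% fell. With the replicate number as a block 47 rose, adding frpr-19, where 19.7% of all genes rose and 22.8% fell.

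The largest rise in neurons A was that of npr-29. Its IP libraries read 5534, 3606 and 6188 against 20.8, 20.6 and 45.0 (log2 ratio 7.48, SE 0.58, adjusted p = 0.000705). It was followed by npr-7 at 6.91 (SE 0.97), frpr-9 at 6.88 (SE 0.98), npr-42 at 6.79 (SE 1.01) and npr-3 at 6.65 (SE 0.82). For npr-1 the IP read 633.0, 637.4 and 109.5 against 3.58, 3.21 and 2.65, a ratio of 6.43 (SE 1.01, adjusted p = 0.00561). Every total RNA library of npr-1 lay under 10, so the gene was tested only through its IP values. For npr-5 the IP read 777.2, 2014 and 0 against 79.9, 141.1 and 17.9, which gave no call (adjusted p = 0.805). Without replicate 3 of the IP its log2 ratio was 4.38 and passed.

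All 46 genes called in neurons A were among the 71 called in neurons B, making up 64.8% of those. Since 71 of the 74 members tested in neurons B rose, this overlap was close to fixed in advance. The ratios of the 2 neuronal strains were then compared directly by the interaction term over their 12 libraries. Of 73 members tested, 0 differed at adjusted p under 0.05 by limma, 1 had an unadjusted p under 0.05, and 2.41% of all genes were higher in neurons B and 0.0125% in neurons A. With a pseudocount of 5, 1 member differed. The member with the lowest p was dmsr-13 (difference 4.33, 95% interval 1.45 to 7.20, adjusted p = 0.129). It was under the mean of 10 in the neurons A table and entered through the neurons B IP. With neurons B total RNA libraries at 0, its difference leans on the added 1. The width of such intervals means that a lack of calls does not show equal ratios.

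In muscle the receptors split into those that rose and those that gave no call. Of 73 members listed 61 were tested, and 24 rose and none fell, where 23.1% of all tested genes rose and 13.1% fell. Counting only members with a mean of 10 in total RNA, 23 of 62 rose, where 21.8% of all genes rose and 13.1% fell. Every tested dmsr gene, 8 of 8, was among the risen, against 11 of 37 npr and 5 of 16 frpr genes. The muscle IP libraries had larger sums than total RNA, and setting every library to an equal sum moved the median of all genes by -1.37 on the log2 scale. On that scale 16 of the 24 stayed risen, and 26 other members fell, where 11.5% of all genes rose and 71.2% fell.

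The gene with the largest rise was npr-5 (chromosome V, 276985 to 281716, minus strand), a receptor for FLP-18 peptides. Its muscle IP libraries read 7117, 8377 and 7635 normalized counts against 220.1, 254.5 and 259.5 in total RNA. The groups were far apart, by 31.5 times on the means (log2 ratio 4.97, SE 0.19, adjusted p = 2.07e-08). It reached 63.1 (SD 5.15) CPM per kilobase in the muscle IP and alone made up 34.9% of the summed receptor level there. The next, dmsr-1, stood at 25.3 (SD 4.67) and npr-12 at 14.8 (SD 2.69), while npr-37 at 13.7 (SD 3.22) did not differ from npr-12 beyond the spread. The median member was at 0.291, below its 0.612 in total RNA.

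Behind npr-5, the muscle IP for npr-12 read 1056, 1825 and 1915 against 83.1, 53.1 and 67.0 (log2 ratio 4.52, SE 0.28, adjusted p = 2.26e-07). For npr-16 it read 909.9, 1451 and 1372 against 53.2, 63.99 and 56.5 (4.38, SE 0.25, adjusted p = 1.02e-07). For dmsr-1 it read 2394, 4369 and 4224 against 201.3, 183.6 and 194.0 (4.19, SE 0.25, adjusted p = 1.74e-07). In all 3 genes replicate 1 was the lowest IP library and still lay well above total RNA. The remaining large rises were npr-23 at 3.99 (SE 0.27), dmsr-7 at 3.97 (SE 0.32), dmsr-6 at 3.64 (SE 0.32) and frpr-7 at 3.60 (SE 0.26). Smaller rises were dmsr-2 at 2.94 (SE 0.28), frpr-19 at 1.97 (SE 0.25), npr-22 at 1.83 (SE 0.27) and npr-8, a receptor tied to collagen genes and defence, at 1.23 (SE 0.35). The direction for npr-8 turned under the equal sum, to -0.13, with no call.

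**Figure D2:**
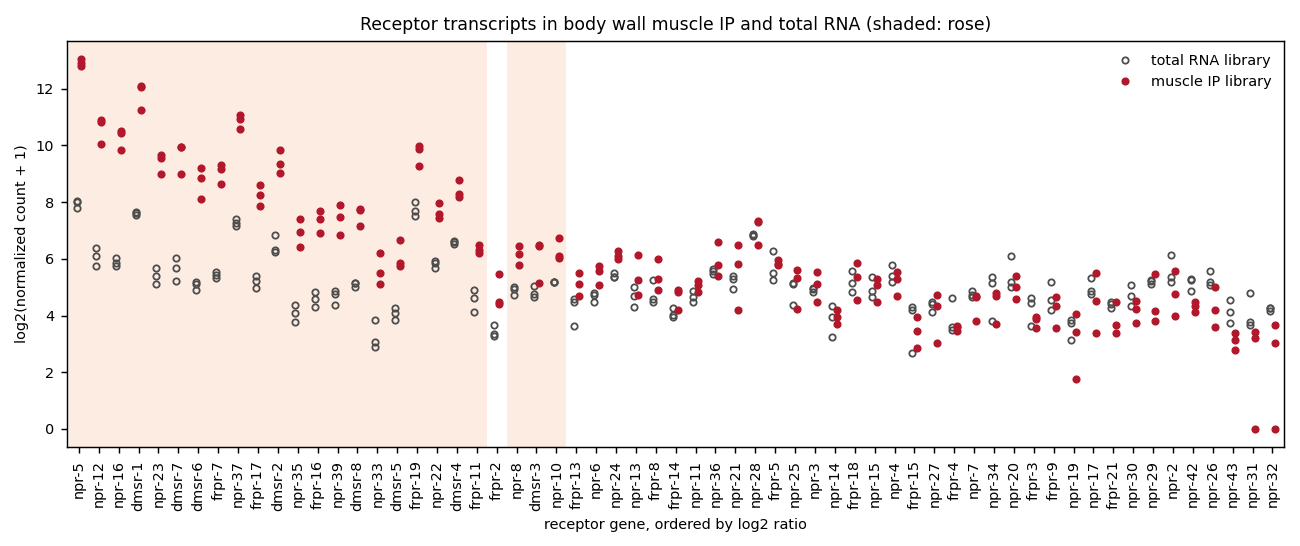
Log2 of the normalized count plus 1 in the 3 muscle IP libraries (filled red) and 3 total RNA libraries (open) for the 61 tested receptor genes, ordered by ratio and shaded where the gene rose. The filled points of npr-5 stand apart at the left, and on the right IP and total RNA points mingle.

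Of the 61 tested members 37 gave no call in muscle, several of them receptors with known roles that had risen in neurons B. For npr-2 the muscle IP read 25.8, 46.4 and 14.8 against 69.4, 35.6 and 39.7, and the groups overlapped (log2 ratio -0.80, SE 0.48, adjusted p = 0.218). For npr-32 it read 11.6 and 7.10 in replicates 1 and 2 and was listed at 0 in replicate 3, against 18.2, 18.2 and 16.9 (adjusted p = 0.119). Ratios for npr-4, npr-6, npr-11, npr-17, npr-19, frpr-3, frpr-4 and frpr-18 lay between -0.51 and 0.81 with no call. For npr-1 the mean was under 10, with 5.78, 4.76 and 11.97 in the IP and 10.2, 2.88 and 7.79 in total RNA. Neuron markers in the same libraries summed to 190.7 to 250.3 CPM against 336.3 to 411.5 in total RNA, with 3 of 14 risen and 2 fallen.

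The neurons B and muscle ratios were compared by interaction over 12 libraries. Of 72 members tested, 69 had the higher ratio in neurons B and none in muscle, where 27% of all genes were higher in neurons B and 29.8% in muscle. Some entered only through the neurons B IP, and with the filter on total RNA alone 61 of 65 were higher in neurons B, where 23% of all genes were and 30.8% were higher in muscle. The largest differences were 8.88 (SE 1.05) for npr-9, 8.77 (SE 0.99) for npr-32 and 8.36 (SE 0.81) for npr-7, of which npr-9 had a mean under 10 in the muscle table. The gene that came closest in the other direction was npr-5, with 4.29 in neurons B and 4.97 in muscle. That difference of -0.68 (95% interval -1.50 to 0.13, adjusted p = 0.137) was not called, and under the equal sum it became 0.30 (adjusted p = 0.606). Without total RNA replicate 1 of neurons B it was -1.004 and passed (adjusted p = 0.0130), with the higher ratio in muscle. For frpr-11 it was -0.63 (95% interval -1.95 to 0.68, adjusted p = 0.391), and for npr-41 it was 0.32 (95% interval -2.10 to 2.74). Of the 24 genes risen in muscle, 23 were also called as risen in neurons B in the reported fit, and frpr-11 was not. With 71 of 74 tested members risen in neurons B, such an overlap was close to fixed in advance.

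**Figure D3:**
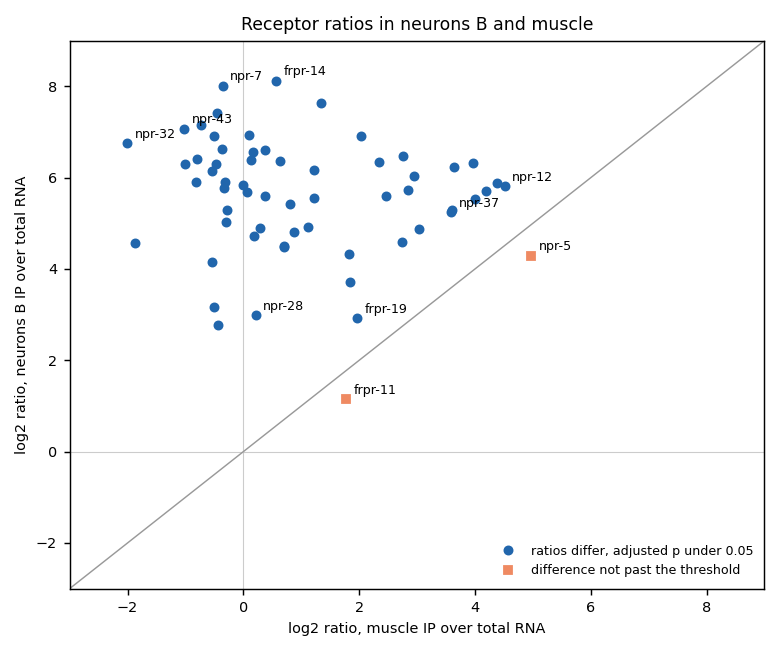
Log2 ratio of IP over total RNA in neurons B (vertical) against muscle (horizontal) for receptor genes tested in both, with the line of equal ratios and squares where the difference did not pass. Most points lie above the line, while npr-5 (4.97 in muscle, 4.29 in neurons B) and frpr-11 lie just below it.

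Few receptors rose in the intestine. Of 74 members listed 38 were tested, and 4 rose and none fell. Of all tested genes 17.8% rose and 9.61% fell, so the share of members was below the background. Some members missed the mean of 10 through low IP values, since 46 reached it in total RNA alone. Under that filter 3 of the 46 rose and 2 fell, where 2226 of 13528 genes rose and 1294 fell. For frpr-11 (chromosome V, 8907196 to 8909444, plus strand) the intestine IP read 129.0, 86.9 and 105.5 against 14.8, 5.91 and 11.6 (log2 ratio 3.26, SE 0.67, adjusted p = 0.00939). For npr-28 it read 506.5, 264.2 and 933.8 against 47.9, 40.4 and 126.9 (2.98, SE 0.63, adjusted p = 0.0108). For npr-13 it read 208.7, 175.3 and 57.1 against 14.9, 22.3 and 22.2 (2.65, SE 0.69, adjusted p = 0.0243). The groups did not overlap in any of these, although replicate 3 of the IP was the lowest for npr-13 and the highest for npr-28.

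The last of the 4, npr-30, rose by 1.89 (SE 0.58, adjusted p = 0.0450), and its call was lost with no filter (adjusted p = 0.0781). Exons of npr-30 share 319 bases with cTel54X.2 on the same strand, so reads may be split between them. The replicate block called 6 members, adding frpr-16 as risen and npr-16 as fallen, where 22.9% of all genes rose and 21.2% fell. Under the equal sum, which moved the median of all genes by -1.15, only frpr-11 stayed risen and 6 other members fell, where 11.1% of all genes rose and 40.6% fell. IP replicate 2 was at 0 for 17 of the 38 tested members. Without it 9 rose, adding dmsr-2, frpr-5, frpr-9, frpr-16 and npr-20, where 21.5% of all genes rose and 13.1% fell. Leaving out IP replicate 1, or total RNA replicate 1 or 2, left 2 members risen. In the same order 1920 of 13690, 1804 of 13636 and 1893 of 13654 genes rose, and 782, 265 and 500 fell. Without IP replicate 3, 3 rose and 3 fell, where 16.1% of all genes rose and 10.2% fell. With no filter 3 of 74 rose and 7 fell, where 13.3% of all genes rose and 9.13% fell. In the authors' deposited table the calls were 9 risen and 5 fallen, where 23.1% of the genes with an adjusted p rose and 23.9% fell.

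Of the receptors with known roles, none that was tested was called in the intestine in the reported fit. Not tested there were npr-1, npr-6, npr-9, npr-17, npr-19, npr-32, frpr-3 and frpr-4. One that was tested, dmsr-2, rose without IP replicate 2. For npr-5 the IP read 52.4, 0 and 54.3 against 74.9, 50.9 and 130 (adjusted p = 0.249), and for dmsr-1 it read 77.4, 154.5 and 89.4 against 66.9, 67.7 and 135.8 (adjusted p = 0.724). In npr-5 the value of 0 came from replicate 2. Against neurons B, 66 of 72 members had the higher ratio in neurons B and none the lower, where 18.7% of all genes were higher in neurons B and 11.8% in the intestine. With the filter on total RNA alone it was 55 of 61, where 14.4% of all genes were higher in neurons B and 11.6% in the intestine. The 6 without a call were frpr-11, npr-28, npr-13, npr-20, npr-41 and dmsr-12. For frpr-11 the difference was -2.11 (95% interval -3.90 to -0.33, adjusted p = 0.0701), and it passed without IP replicate 2 of the intestine (adjusted p = 0.0384), without total RNA replicate 2 of neurons B (0.0477) and with the replicate block (0.0486), while under the equal sum it was -1.39 (adjusted p = 0.310). For npr-13 the difference of 1.85 (95% interval 0.14 to 3.56, adjusted p = 0.0969) passed under the equal sum, at 2.60 (adjusted p = 0.0160), and without IP replicate 2 of the intestine (adjusted p = 0.0465). For npr-28 it was 0.01 (95% interval -1.63 to 1.66), since the ratio was 2.99 in neurons B.

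**Figure D4:**
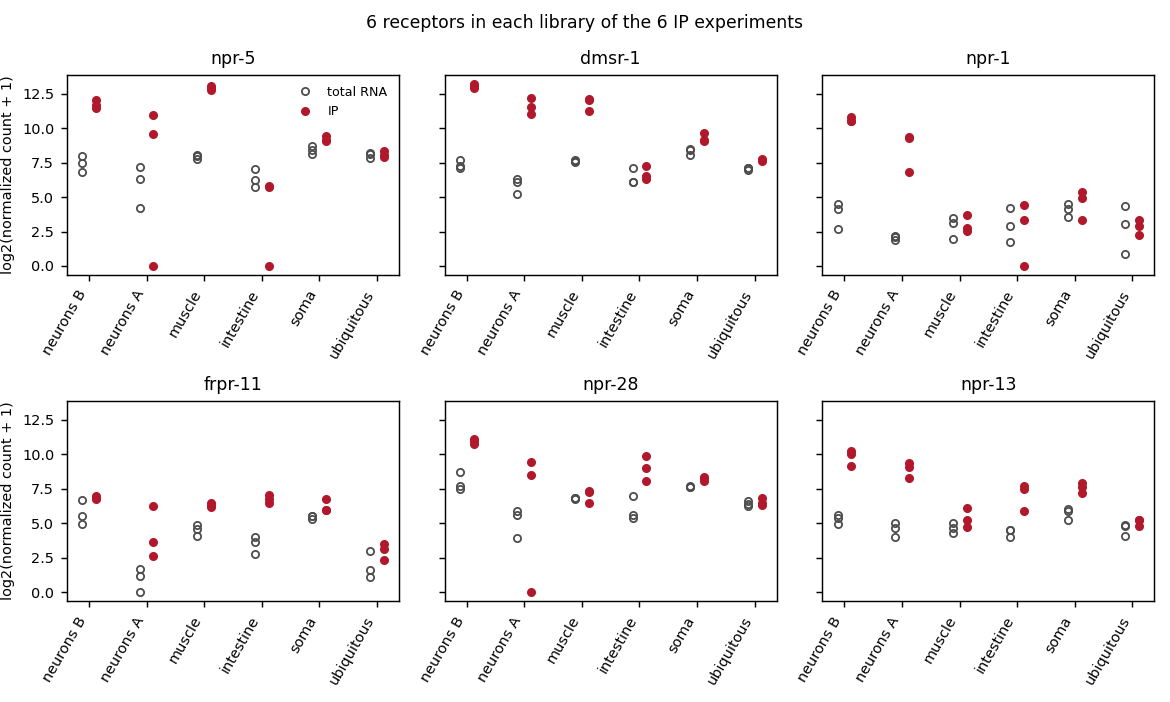
Log2 of the normalized count plus 1 for 6 receptor genes in each IP library (filled) and total RNA library (open) of the 6 IP experiments. The IP points of npr-5 stand highest in muscle, and those of npr-1 rise in the 2 neuronal strains. Those of frpr-11 clear total RNA in muscle, intestine and, by less, neurons B.

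In the soma IP, driven by eft-3, ratios were modest. Of 72 members tested 19 rose and none fell, a share of 26.4% against 25.1% of all tested genes that rose and 32.7% that fell, so the share risen was near the background. With the replicate block 28 rose, where 28.5% of all genes rose and 37.3% fell. Ratios above that of any gene called belonged to dmsr-12 at 2.45 and npr-38 at 2.21 (SE 1.06, adjusted p = 0.0920), which were not called. Among called members whose groups did not overlap the highest ratio was that of npr-13, whose IP read 145.9, 245.7 and 202.5 against 36.3, 59.9 and 65.5 (log2 ratio 1.87, SE 0.39, adjusted p = 0.00291). It was followed by npr-29 at 1.69 (SE 0.36), npr-2 at 1.58 (SE 0.35) and npr-11, a receptor for NLP-1 in olfactory behaviour, at 1.56 (SE 0.43). For npr-5 the rise was 0.77 (SE 0.30, adjusted p = 0.0465), and it was lost with no filter. Without IP replicate 2 the count fell to 9 of 71, where 3564 of 16054 genes rose. Without IP replicate 3 it was 10 of 71, where 3289 of 15974 genes rose. Without total RNA replicate 1 it was 7 of 72, where 3462 of 15965 genes rose. Without total RNA replicate 2 it was 10 of 72, where 3086 of 16046 genes rose. In each of these fits the share of members that rose was below the background. Germline markers fell, 10 of 10, in the same libraries, with summed levels of 1029 to 2106 CPM against 5895 to 10970 in total RNA, and their part in these ratios was not tested.

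With the tag on the endogenous gene, IP and total RNA came from all tissues, and few receptors were called. Of 40 members tested in the ubiquitous IP, 4 rose and 1 fell, where 16.9% of all tested genes rose and 20.4% fell. For dmsr-1 the IP read 220.5, 200.5 and 192.8 against 135.3, 134.8 and 122.1 (log2 ratio 0.64, SE 0.17, adjusted p = 0.0140). The others that rose were frpr-5 at 1.43 (SE 0.46), npr-30 at 1.34 (SE 0.36) and dmsr-7 at 0.89 (SE 0.24). For npr-20 the IP read 18.7, 14.1 and 14.8 against 34.0, 28.4 and 57.9, a fall of 1.23 (SE 0.34, adjusted p = 0.0185), which was lost under the equal sum. In the same libraries 7 of 10 germline markers fell, with summed levels of 3018 to 3801 CPM against 3812 to 6630 in total RNA, and their part was not tested. The count ranged from 1, without IP replicate 1 or 3, to 8, without total RNA replicate 3. It was 3 without IP replicate 2 and 2 without total RNA replicate 2. Calls over all genes moved too. Without IP replicate 1, 2 or 3, in that order, 1366 of 13824, 1523 of 13826 and 1451 of 13819 rose. In these fits 1927, 2130 and 1977 fell. Without total RNA replicate 2, 1779 of 13905 rose and 2115 fell, and without replicate 3, 3332 of 13840 rose and 3828 fell.

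On sucrose gradients, where no tissue is chosen, receptors that changed mostly fell. In the polysomes of MSD470 1 of 57 tested members rose and 8 fell, where 28.4% of all tested genes rose and 30.3% fell. In the pool of 60S, 80S and polysome fractions 0 of 60 rose and 4 fell, where 20.6% rose and 23.1% fell. In the N2 polysomes 3 of 59 rose and 9 fell, where 33.6% rose and 33.9% fell. Each share of members that fell was below the background. By the authors' deposited tables, 3 fell in MSD470 polysomes, where 20.9% of genes with an adjusted p rose and 24.7% fell. In the pool 1 fell, where 15.9% rose and 20.3% fell, and in N2 6 fell, where 25.2% rose and 26.6% fell. The count for MSD470 polysomes dropped to 4 without total RNA replicate 1 or 3 and to 5 without total RNA replicate 2. Without replicates 1, 2 and 3 in turn, 3307 of 14579, 3767 of 14636 and 3126 of 14585 genes rose, and 3721, 3779 and 3560 fell. The count for N2 dropped to 7 without total RNA replicate 2, where 4407 of 14681 genes rose and 4467 fell.

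Among the falls, those of dmsr-4, frpr-5, frpr-19 and npr-30 were called in all 3 gradients. The share of all genes that fell in all 3 was not counted, so this overlap has no background beside it. In the ubiquitous IP of the same strain MSD470, frpr-5 and npr-30 rose instead, and dmsr-4 and frpr-19 were not called. For frpr-19 the N2 polysomes read 107.1, 89.6 and 122.6 against 179.8, 225.0 and 226.5 in total RNA, with no overlap (log2 ratio -0.98, SE 0.19, adjusted p = 0.000258). In the pooled fractions it fell by 1.08 (SE 0.21), and in the MSD470 polysomes by 1.84 (SE 0.66), where replicate 1 read 14.7 against 95.1 and 129.2 in the other replicates. For dmsr-4 the MSD470 polysomes read 25.7, 23.3 and 24.8 against 68.4, 75.6 and 79.7 (-1.56, SE 0.23, adjusted p = 0.000744). It fell by 0.70 (SE 0.21) in the pool and by 0.89 (SE 0.25) in N2. For npr-30 the falls were 1.82 (SE 0.34), 0.82 (SE 0.22) and 1.47 (SE 0.26) in the same order, and for frpr-5 they were 1.05 (SE 0.28), 0.82 (SE 0.31) and 0.81 (SE 0.25).

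The deepest fall was that of frpr-13 in N2 polysomes, which read 2.97, 1.47 and 15.7 against 32.2, 31.6 and 28.8 (log2 ratio -2.54, SE 0.57, adjusted p = 0.00105). In MSD470 polysomes frpr-13 fell by 2.22 (SE 0.84, adjusted p = 0.0472), with replicate 1 listed at 0 and 6.38 and 10.7 in the others against 24.5, 16.2 and 18.8. For frpr-11 the N2 polysomes read 2.97, 11.7 and 10.96 against 47.4, 31.7 and 28.8 (log2 ratio -2.09, SE 0.45, adjusted p = 0.000781). The rises were small: npr-10 at 0.66 (SE 0.28), npr-23 at 0.58 (SE 0.22) and npr-28 at 0.50 (SE 0.16) in N2, and npr-31 at 1.28 (SE 0.46) in MSD470 polysomes. All 4 lost their call under the equal sum, where 0 members rose and 18 fell in N2 while 20.5% of all genes rose and 43.6% fell. Germline markers fell in these libraries as well, 9 of 10 in the MSD470 polysomes, 6 of 10 in the pool and 8 of 10 in N2. Of 14 neuron markers 8 rose and none fell in N2. Their summed level there was 327.9 to 368.2 CPM in polysomes, below the 369.2 to 395.4 in total RNA. In the MSD470 polysomes 4 rose and 1 fell, with summed levels of 219.3 to 342.9 CPM against 314.5 to 379.7. In N2 11 of 12 body wall muscle markers and 11 of 12 intestine markers rose. The part of these cell types in the receptor values was not tested.

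**Figure D5:**
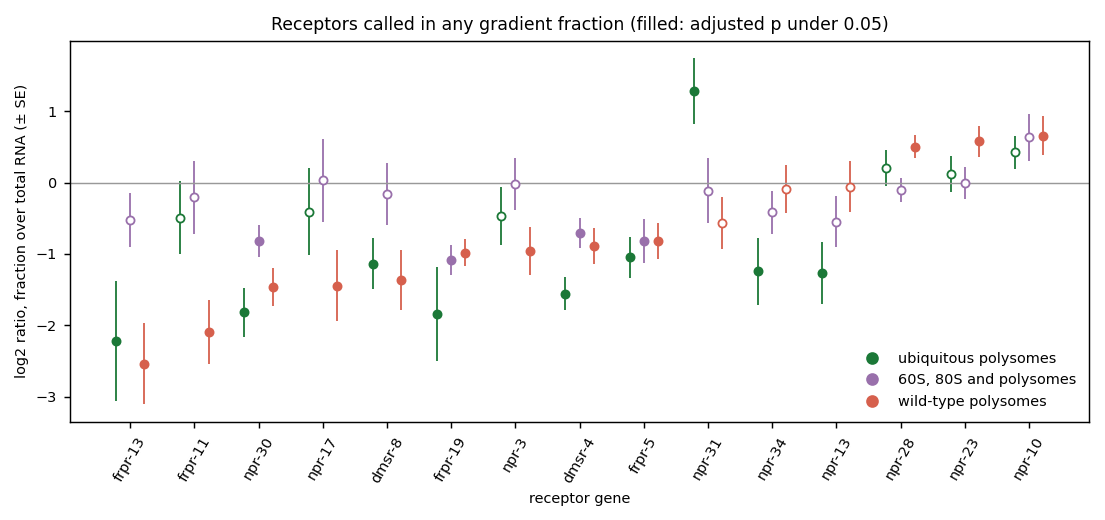
Log2 ratio of gradient fraction over total RNA with its SE for the 15 receptor genes called in any of the 3 gradients, filled where the adjusted p is under 0.05. All 3 points lie below 0 and are filled for dmsr-4, frpr-5, frpr-19 and npr-30.

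Among 26 other peptide receptor genes outside the 3 families, 25 of 26 tested rose in neurons B, led by the tachykinin receptor tkr-2 at 7.49 and the vasopressin-like receptor ntr-1 at 6.87. In muscle 9 of 22 rose, among them ckr-2, the cholecystokinin-type receptor for NLP-12, at 4.19, seb-3, a secretin-class receptor, at 3.96 and the PDF receptor pdfr-1 at 3.80. In the intestine 1 of 10 rose, the glycoprotein hormone receptor fshr-1, at 3.42. The median log2 ratio of this list in muscle was 0.68 beside -0.14 over all genes, of which 23.1% rose. In neurons B and the intestine 38.7% and 17.8% of all genes rose.

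The flp genes encode FMRFamide-like peptides, ligands of several of these receptors. In neurons B 31 of 31 rose, with a median of 7.24 beside 0.10 over all genes and flp-1 the highest at 8.53. In muscle 2 of 30 rose, flp-10 at 2.98 and flp-18 at 0.69, and 4 fell. In the soma IP 29 of 31 rose, with a median of 1.35, and in N2 polysomes 19 of 30 rose and 1 fell. Of all genes, 38.7% rose in neurons B, 23.1% in muscle, 25.1% in the soma and 33.6% in N2. Under the equal sum N2 had 8 risen and 3 fallen, where 20.5% of all genes rose and 43.6% fell, and muscle 1 risen and 29 fallen, where 11.5% rose and 71.2% fell.

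Of 23 G protein signalling genes 19 rose in muscle and none fell, among them gpc-2, a gamma subunit, at 4.25, the adenylyl cyclase acy-1 at 3.47, the protein kinase A subunit kin-2 at 3.58 and egl-30, the Gq alpha subunit, at 3.18. Of all genes 23.1% rose in muscle. Under the equal sum 11 rose and 6 fell, where 11.5% of all genes rose and 71.2% fell. In neurons B, where 38.7% of all genes rose, 20 of 23 rose and gpa-12 fell by 2.28. Of 19 genes for peptide processing and release 15 rose in neurons B, with the amidating lyase pgal-1 at 7.59, and bli-4 fell by 1.22. In muscle 4 of 19 rose and 2 fell, near the background, where 23.1% of all genes rose and 13.1% fell. The median of this list there was -0.17 beside -0.14 over all genes. The rises were led by nep-2, a peptide-degrading neprilysin, at 3.97, while the carboxypeptidase egl-21 fell by 1.14 and ida-1 by 0.85.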

How the data were processed

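RNA of 54 libraries in 18 groups of 3 was sequenced. The submitters' processing notes list kallisto (0.46.1), DESeq2 (1.30.1), R (4.0.4) and build ce11, with no role given. For each library the authors deposited normalized counts (a signal, not whole reads), each table being normalized on its own. The deposited tables also hold the authors' log2 fold change and its standard error, a test statistic (score), p-values and their −log10. For gradients, per the labels' protocols, worms were harvested for each replicate. The labels do not say this of the IPs, so their p-values measure only the spread between these samples, which may be technical.

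Fractions were compared with total RNA by limma-trend (version 3.58.1 of limma, under R 4.3.3), two-sided, on log2(normalized count + 1). Genes needed a mean of 10 or more, and Benjamini-Hochberg adjustment covered all of them. Differences between experiments were interaction terms over both experiments. The fit was tested on simulated data. On this scale the ratios of low genes depend on the added value. It can understate a change, or overstate a fall where a shallow library is at 0. The median log2 ratio of tested members in the intestine was -1.21, -1.01 and -0.45 with pseudocounts of 0.5, 1 and 5. Symbols, exons and positions came from Ensembl release 115 (WBcel235), which named 19405 of 20728 identifiers. Other software was Python (3.11.15), with pandas (2.3.3), numpy (2.4.6), scipy (1.17.1) and matplotlib (3.10.9).

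Members and gene lists were chosen with earlier results of these data known. Named were, among members past the threshold whose groups did not overlap, up to 8 each way in the neuronal, muscle and intestine IPs and up to 4 elsewhere, up to 6 differences each way, and 19 receptors with known roles. Others, such as npr-41 in neurons B, the dmsr-9 to dmsr-16 genes and several list genes, were picked after their values were seen.

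Replicate numbers were checked for pairing by correlating deviations from group means across genes. Every pair exceeded 0.1 in the intestine (lowest 0.304), neurons A (0.313) and ubiquitous (0.187) experiments, which count as paired. The reported fit left the replicate numbers out, and the replicate block used them. The alternatives were pseudocounts of 0.5 and 5, no filter, a filter on total RNA alone, equal sums, a replicate block, each library left out and the authors' deposited test. Leaving out members whose exons share at least 100 bases with other genes was added after the data were seen.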

Additional observations from a re-analysis of the deposited data

Results flagged for a closer look

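The ratio of IP over total RNA differed between experiments for most receptor genes, by the interaction test. It differed for 69 members between neurons B and muscle and for 66 between neurons B and intestine, in each case with the higher ratio in neurons B. Many other genes differed as well. Against muscle 27% of all genes were higher in neurons B and 29.8% in muscle. Against the intestine 18.7% were higher in neurons B and 11.8% in the intestine.

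Against muscle, the largest log2 differences were 8.88 for npr-9, 8.77 for npr-32, 8.36 for npr-7, 8.17 for npr-38, 8.10 for npr-43 and 7.88 for npr-29. In muscle npr-9 was listed at 0 in 2 of its 3 IP libraries, and so was npr-38, so their differences lean on the added 1.

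Against the intestine, they were 10.83 for npr-7, 10.31 for frpr-3, 10.15 for npr-43, 10.12 for npr-34, 10.01 for npr-3 and 9.65 for frpr-14. Intestine IP replicate 2 was at 0 for 53 of the 74 listed members, and 1 read there is estimated at 7.21 normalized counts. The mean of 10 was taken over 12 libraries, so a member could pass through the neurons B IP alone. Where a library is at 0, the difference leans on the added 1.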

How the results depend on the processing

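Of the receptor genes in the intestine 4 were called in the reported fit, all risen. With no filter 10 were called (3 risen, 7 fallen), under the equal sum 7 (1 and 6) and in the authors' deposited test 14 (9 and 5). The equal sum gave 42 in muscle, of which 26 fell. The filter on total RNA alone gave 19 in neurons A. The authors' deposited test gave 3 in MSD470 polysomes, 1 in the pooled fractions and 6 in N2 polysomes. A pseudocount of 5 gave 1 difference between the neuronal strains. The cause was not tested.

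Leaving out each library in turn gave 2 to 9 calls in the intestine, 21 to 27 in muscle, 32 to 69 in neurons A, 71 to 72 in neurons B, 7 to 18 in the soma, 1 to 8 in the ubiquitous IP, 4 to 9 in MSD470 polysomes, 3 to 5 in the pool and 7 to 16 in N2. The calls over all genes moved in these fits as well. The differences gave 0 to 1 between neuronal strains, 65 to 70 against muscle and 60 to 68 against the intestine.

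The replicate block gave 6 calls in the intestine, 47 in neurons A and 6 in the ubiquitous experiment, where the numbers pair the samples, and changed no call there beyond those added. In the soma, where the lowest correlation of same-numbered libraries was 0.081, it gave 28, where 28.5% of all genes rose. Of the 3 numbers in the pooled fractions, 0 matched best with their own. All 3 did so in the intestine, neurons A, neurons B, soma and ubiquitous experiments.

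Of 1391 alternative values of the named results, 1281 kept direction and side of the threshold, 109 lost the threshold and 1 turned, npr-8 in muscle under the equal sum (-0.13, adjusted p = 0.736). Leaving out members with overlapping exons kept every count within 1.5 times. The lowest estimated depth was that of intestine IP replicate 2, and the most genes at 0 were in neurons A IP replicate 3.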
